A study of Mus musculus with 5 samples.

Results

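The 10 genes described here encode RNA-binding proteins that set splicing or translation patterns in neural progenitors and neurons: Ptbp1, Ptbp2, Nova1, Nova2, Rbfox2, Rbfox3, Srrm4, Elavl3, Msi1 and Msi2. They were taken by gene symbol from a table of 21801 genes. RNA was sequenced from mouse neuroepithelial cells, abbreviated NECs, which divide at the ventricular surface of the early neural tube, in 5 libraries that the labels place in 1 group as replicates 1 to 5. The labels class them as neural progenitors, and the series text calls them purified and concerns the developing neocortex. Embryonic age, strain, sorting marker, pooling of animals, genotype and treatment are not stated there. Nothing shows that each replicate is its own animal or culture, and p-values therefore cover just the spread among the 5 libraries, which may be technical. With 1 group, the design allows a gene's level to be set against a fixed value and against another gene in the same library.

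Ptbp1 holds many neuronal exons out of mature transcripts in progenitors, and its relative Ptbp2 takes over a weaker form of this role as neurons form. Srrm4 promotes inclusion of very short exons in neurons, Nova1 and Nova2 direct alternative exons of synaptic transcripts, and Rbfox2 and Rbfox3 bind introns beside regulated exons, Rbfox3 being the NeuN antigen of mature neurons. Elavl3 (HuC) is a neuronal Hu protein that stabilises and splices transcripts, and Msi1 and Msi2 (Musashi) control translation and are known for keeping neural progenitors undifferentiated.

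The PTB genes share an exon that is known to control their output. Ptbp1 protein represses an exon of 34 bases in Ptbp2 transcripts and the matching exon of its own transcripts, and because that length is no multiple of the codon size, skipping shifts the reading frame and sends the transcript to decay. On mm10 the exon lies at chr10:79862014-79862047 on the + strand in Ptbp1 and at chr3:119724612-119724645 on the - strand in Ptbp2. In GENCODE M21 it belongs to 3 protein-coding transcripts of each gene, and 2 transcripts of each that are annotated as targets of decay skip it. The exons are printed below in lower case, with the 8 positions at which they differ in capitals, and the other 26 of 34 (76.5%) are the same.
Ptbp1 exon: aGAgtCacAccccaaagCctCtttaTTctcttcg
Ptbp2 exon: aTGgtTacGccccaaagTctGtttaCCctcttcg
A gene-level value adds up transcripts with and without this exon, so the levels of Ptbp1 and Ptbp2 given here do not show how much of either could make protein.

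Promoter windows were available from RefSeq (build GRCm38.p6) for 8 of the 10 genes, Rbfox2 and Msi1 not among them, each window reaching from 250 bases before to 50 after an annotated start. Of these, 3 are shown because they hold a highly expressed gene, the gene with the lowest level, and the gene with the fewest CpG dinucleotides. Capitals mark every CG, which reads as CG on both strands. The Ptbp2 window is at chr3:119783339-119783638, the Srrm4 window at chr5:116591768-116592067 and the Rbfox3 window at chr11:118760992-118761291, all on the - strand.
Ptbp2 promoter: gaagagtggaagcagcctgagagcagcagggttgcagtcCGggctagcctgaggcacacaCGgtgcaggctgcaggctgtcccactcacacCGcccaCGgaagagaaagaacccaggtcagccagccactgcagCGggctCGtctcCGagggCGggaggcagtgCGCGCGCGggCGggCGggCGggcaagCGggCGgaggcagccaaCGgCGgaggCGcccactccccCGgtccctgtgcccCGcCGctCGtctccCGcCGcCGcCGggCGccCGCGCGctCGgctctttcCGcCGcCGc
Srrm4 promoter: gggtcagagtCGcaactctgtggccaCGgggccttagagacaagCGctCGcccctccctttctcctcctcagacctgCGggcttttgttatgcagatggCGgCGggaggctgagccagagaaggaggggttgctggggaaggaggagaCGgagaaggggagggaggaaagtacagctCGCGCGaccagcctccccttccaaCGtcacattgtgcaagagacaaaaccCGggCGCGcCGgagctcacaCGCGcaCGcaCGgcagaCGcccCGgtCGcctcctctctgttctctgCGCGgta
Rbfox3 promoter: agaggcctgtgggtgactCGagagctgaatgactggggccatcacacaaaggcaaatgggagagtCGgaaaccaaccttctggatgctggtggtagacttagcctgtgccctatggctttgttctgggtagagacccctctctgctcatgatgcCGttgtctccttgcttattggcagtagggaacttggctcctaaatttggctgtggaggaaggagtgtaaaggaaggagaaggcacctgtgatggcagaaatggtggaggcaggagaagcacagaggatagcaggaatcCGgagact
The Ptbp2 window held 36 CpG, more than 93.8% of the 32851 windows in the RefSeq table, whose median was 7. The Srrm4 window held 25 CpG, more than 81.6% of the windows. The Rbfox3 window held 4, more than 31.4% of them, and like the Ptbp2 window it starts inside the span that GENCODE M21 gives the gene, so each gene has a start further upstream in that annotation. Elavl3 (29 CpG), Ptbp1 (22), Nova2 (17) and Nova1 (14) were also above the median, as were the 3 windows of Msi2 (37, 38 and 39). High CpG content was thus shared by genes of high and of low level.

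The unit FPKM counts fragments for each kilobase of transcript, scaled to the size of a library, so levels of different genes share a unit. Among the 10 genes the longest coding transcript ran from 3133 bases (Msi1) to 8372 (Nova2). Whether cDNA made with a poly-dT primer covered transcripts of unlike length evenly was not tested. Differences between genes, and their order, carry that limit. The steps between low values implied 20.5 to 28.2 M reads (M = 1000000) behind each library's unit. Of the 12 neural progenitor markers 11 lay above 1 FPKM and 1 was called neither way. Of 15 neuron markers 7 lay above, 6 below and 2 neither way. Among all genes tested 52.3% lay above and 41.4% below, so by calls the neuron markers were close to that division. The summed level ran from 274 to 321 FPKM for the progenitor markers and from 97.6 to 136 for the neuron markers. Tubb3 was the highest neuron marker at 61.6 ± 13.1 FPKM. Markers of other cells were present: the summed level ran from 39.3 to 142 FPKM for 10 mesenchyme markers (8 above 1 FPKM), from 119 to 183 for 8 surface ectoderm markers (7 above), from 19.3 to 47.1 for 6 neural crest markers (4 above) and from 5.54 to 12.1 for 6 endothelial markers (1 above). The 6 blood markers summed to 0.267 to 1.28 FPKM, and Hbb-bt and Aif1 were listed at 0 in every library. Such a 0 can be a failed estimate, since Actb and Eef1a1 were listed at 0 in every library too. Foxd3 (neural crest) and Slc17a7 (glutamatergic neurons) were each listed at 0 in 4 of 5 libraries. In such mixed bulk RNA, fewer cells of a type and less RNA per cell cannot be told apart.

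The 10 genes spanned more than 3 orders of magnitude in level and split into 6 above and 4 below 1 FPKM. Ptbp1, Ptbp2, Msi1, Msi2, Rbfox2 and Nova1 lay above, and Nova2, Elavl3, Rbfox3 and Srrm4 below, by limma's moderated test over all genes with Benjamini-Hochberg adjusted p under 0.05. Over the 19706 genes tested, 52.3% lay above and 41.4% below 1 FPKM, so the division of these 10 was close to that of all genes. Their median level was 3.94 FPKM, against 1.79 FPKM over all genes tested. Together they made up 0.0566% to 0.0667% of a library's summed FPKM, and Ptbp1 alone held 73.4% to 78.2% of their sum.

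**Figure D1:**
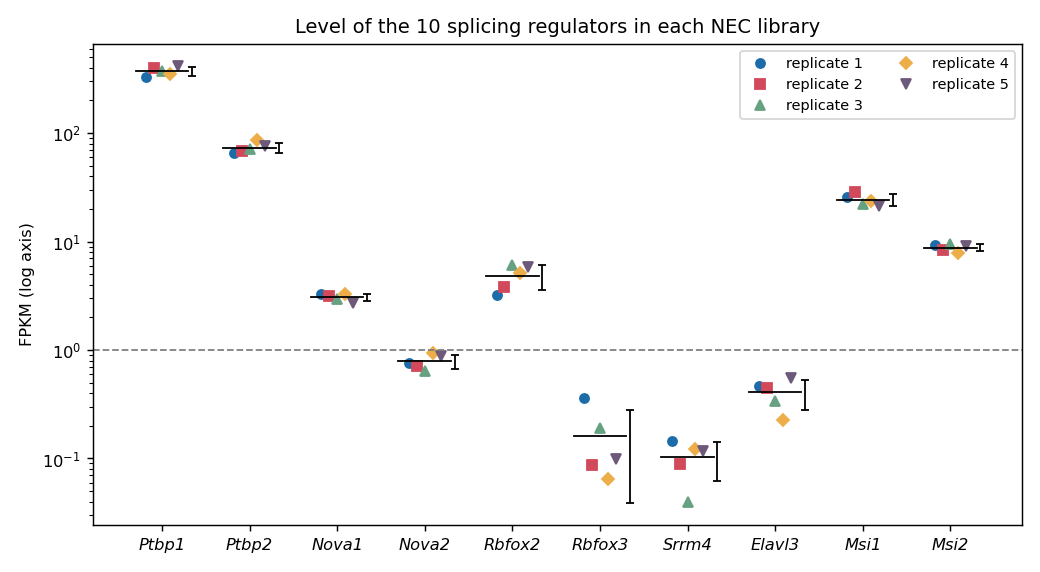
FPKM on a log axis for each of the 10 genes in the 5 NEC libraries (one symbol and colour per replicate), with a horizontal line at the mean, an error bar of 1 SD and a dashed line at 1 FPKM. Ptbp1 (326 to 417 FPKM) stands above all others, and Srrm4 (0.0400 to 0.144 FPKM) and Rbfox3 (0.0644 to 0.361 FPKM) overlap at the bottom.

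Of the PTB genes, Ptbp1 was the higher in every library. Ptbp1 (ENSMUSG00000006498, chromosome 10, 79854427 to 79864771 on mm10) had 326, 397, 372, 352 and 417 FPKM in replicates 1 to 5, a mean of 373 ± 35.9 (SD, n = 5). Its level exceeded that of 98.0% of the genes tested and lay 7.54 above 1 FPKM in log2(FPKM + 1), with SE 0.06 and a limma adjusted p = 6.3e-12. The highest library was 1.28 times the lowest. Its SD of log2(FPKM + 1), 0.14, was larger than that of 74.9% of the 350 genes within 1.5 times its mean level. Ptbp2 (ENSMUSG00000028134, chromosome 3, 119718742 to 119784466) had 65.1, 68.3, 71.1, 86.5 and 75.7 FPKM, a mean of 73.3 ± 8.34, above 90.5% of the genes tested. It was 5.21 above 1 FPKM (SE 0.06, limma adjusted p = 6.4e-11), and replicate 4 was its highest library. The SD of log2(FPKM + 1) of Ptbp2, 0.16, was larger than that of 73.3% of the 1132 genes within 1.5 times its mean level.

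In log2(FPKM + 1), Ptbp1 exceeded Ptbp2 by 2.33 ± 0.20, being higher in 5 of 5 libraries, and the ratio of their FPKM ran from 4.07 to 5.81. It exceeded the third paralog, Ptbp3 (16.0 ± 1.93 FPKM), by 4.46 ± 0.14 in 5 of 5 libraries. By exact permutation of the signs, two-sided, p was 0.0625 for each, the smallest value 5 libraries allow, and an adjusted p = 0.0682 over the 12 pairs compared, so no pair could pass 0.05. Exons of Ptbp1 overlap those of 3 genes on the opposite strand, E130317F20Rik, Gm17134 and Plppr3, and the labels do not say that strand was kept, so reads from these could not be told apart.

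The Musashi genes were the next in level. Msi1 (ENSMUSG00000054256, chromosome 5, 115429599 to 115455698) had 26.0, 28.3, 22.1, 23.7 and 21.3 FPKM in replicates 1 to 5, a mean of 24.3 ± 2.90. Msi2 (ENSMUSG00000069769, chromosome 11, 88339382 to 88718513) had 9.37, 8.33, 9.45, 7.82 and 9.05 FPKM, a mean of 8.80 ± 0.70. The ranges of these genes did not overlap. Both lay above 1 FPKM, by 3.65 (SE 0.07, limma adjusted p = 7.0e-10) for Msi1 and by 2.29 (SE 0.06, limma adjusted p = 7.2e-09) for Msi2. Msi1 minus Msi2 came to 1.36 ± 0.22 (log2), positive in 5 of 5 libraries, with an FPKM ratio of 2.33 to 3.40 (exact p = 0.0625, adjusted 0.0682). Numb, a Notch inhibitor whose translation Msi1 is known to repress, stood at 21.8 ± 3.84 FPKM.

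Rbfox2 had the widest spread between libraries of the 10 in log2(FPKM + 1), while by the ratio of highest to lowest library Rbfox3 (5.61), Srrm4 (3.61) and Elavl3 (2.45), all under 1 FPKM, exceeded it (1.91). Rbfox2 (ENSMUSG00000033565, chromosome 15, 77078990 to 77307004) had 3.21, 3.80, 6.12, 5.12 and 5.78 FPKM in replicates 1 to 5, a mean of 4.81 ± 1.26. Its SD of log2(FPKM + 1) was 0.33, larger than that of 85.0% of the 1989 genes within 1.5 times its mean level, against a median of 0.16 over the 10983 genes that averaged 1 FPKM or more. It lay above 1 FPKM by 1.51 (SE 0.13, limma adjusted p = 9.9e-06). Replicates 1 and 2 were the low libraries. The summed level of the mesenchyme markers was 39.3, 67.3, 142, 116 and 118 FPKM in replicates 1 to 5, and that of the neural crest markers was 19.3, 27.9, 47.1, 35.8 and 39.4 FPKM. Both put the libraries in the same order as Rbfox2, and the part of either kind of cell in the level of Rbfox2 was not tested.

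Rbfox3 (ENSMUSG00000025576, chromosome 11, 118489762 to 118911597) had 0.361, 0.0878, 0.191, 0.0644 and 0.0995 FPKM in replicates 1 to 5, a mean of 0.16 ± 0.12. Replicate 1 was 5.61 times replicate 4. For the longest coding transcript these values stand for about 25.8, 7.2, 12.3, 5.7 and 7.2 reads, so differences between the low libraries rest on a few reads. Rbfox3 lay below 1 FPKM by -0.79 (SE 0.05, limma adjusted p = 2.2e-06). Rbfox2 exceeded Rbfox3 by 2.30 ± 0.42 and the third family gene, Rbfox1 (0.29 ± 0.14 FPKM), by 2.15 ± 0.25 (log2), and was the higher gene of both pairs in 5 of 5 libraries (exact p = 0.0625, adjusted 0.0682, for each). With a pseudocount of 0.1 these differences were 4.30 and 3.73, since a pseudocount of 1 FPKM compresses levels far under 1.

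Of the Nova genes, Nova1 lay above and Nova2 below 1 FPKM. Nova1 (ENSMUSG00000021047, chromosome 12, 46694517 to 46818929) had 3.26, 3.13, 2.97, 3.26 and 2.73 FPKM in replicates 1 to 5, a mean of 3.07 ± 0.22, and lay above the level by 1.02 (SE 0.08, limma adjusted p = 4.3e-06). It was the steadiest member in relative terms, its highest library being 1.19 times its lowest. Nova2 (ENSMUSG00000030411, chromosome 7, 18925888 to 18965319) had 0.765, 0.707, 0.642, 0.933 and 0.872 FPKM, a mean of 0.78 ± 0.12, and lay below the level by -0.17 (SE 0.06, limma adjusted p = 0.025). That call was lost without replicate 2 (log2 difference -0.15, limma adjusted p = 0.076) and without replicate 3 (-0.14, limma adjusted p = 0.085). Exons of Nova1 overlap those of Gm33869 and exons of Nova2 those of Gm26821. Nova1 minus Nova2 came to 1.19 ± 0.12 (log2), positive in 5 of 5 libraries, with an FPKM ratio of 3.13 to 4.63 (exact p = 0.0625, adjusted 0.0682).

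**Figure D2:**
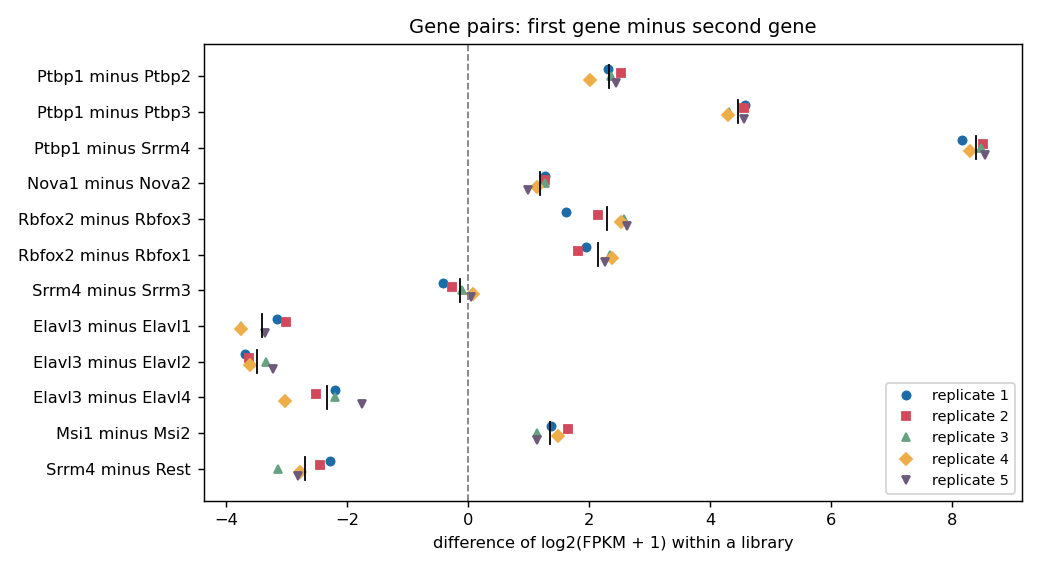
Difference of log2(FPKM + 1) between the genes of 12 pairs, first gene minus second, with a symbol for each of the 5 libraries, a vertical tick at the mean and a dashed line at 0. In 11 pairs all libraries lie on one side of 0, and Srrm4 minus Srrm3 lies on both sides (-0.42 to 0.08).

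Srrm4 had the lowest mean of the 10 genes. Srrm4 (ENSMUSG00000063919, chromosome 5, 116439275 to 116591817) had 0.144, 0.0892, 0.0400, 0.121 and 0.117 FPKM in replicates 1 to 5, a mean of 0.10 ± 0.04, above 24.0% of the genes tested. In its longest coding transcript, of 7472 bases, these values stand for about 6.1 reads in replicate 3 and up to 25.5 in replicate 4. It lay below 1 FPKM by -0.86 (SE 0.03, limma adjusted p = 1.3e-08). Its exons overlap the antisense gene Srrm4os, so part of these reads may not be its own. Its paralog Srrm3, also an activator of short neuronal exons, stood at 0.22 ± 0.20 FPKM. The difference of Srrm4 minus Srrm3 was -0.13 ± 0.21 on the log2 scale, with Srrm4 higher in 2 of 5 libraries (exact p = 0.312, adjusted 0.312). Ptbp1 exceeded Srrm4 by 8.40 ± 0.17 in 5 of 5 libraries (p = 0.0625, adjusted 0.0682 by the same exact test). With a pseudocount of 0.1 the difference was 10.87, and the ratio of their FPKM ran from 2259 to 9297.

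Rest, a repressor of neuronal genes that is known to silence Srrm4 outside neurons and whose own transcript Srrm4 splices into a less active form, stood at 6.22 ± 1.47 FPKM. Srrm4 minus Rest was -2.69 ± 0.33 on the log2 scale, Rest being the higher in 5 of 5 libraries (exact p = 0.0625, adjusted 0.0682), and -4.96 with a pseudocount of 0.1. Rest had 4.56, 4.94, 8.13, 6.64 and 6.84 FPKM in replicates 1 to 5, so its libraries stood in the order of the mesenchyme and of the neural crest sums, as those of Rbfox2 did, and the part of those cells in its level was not tested. Kdm1a and Ctdsp2, of the Rest cofactors listed here, had the same order, so that order is not particular to Rest and Rbfox2. All 11 genes listed for the Rest complex and its cofactors lay above 1 FPKM, with a median of 13.2 FPKM. Over all genes tested 52.3% lay above, and the median was 1.79 FPKM. Of the 11 genes, the deacetylase Hdac1 (304 ± 24.8 FPKM) and the scaffold Sin3a (51.6 ± 5.58) were the highest, and the corepressor Rcor3 (1.67 ± 0.18) the lowest.

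Elavl3 was low while other genes of its family were not. Elavl3 (ENSMUSG00000003410, chromosome 9, 22015005 to 22052023) had 0.462, 0.451, 0.341, 0.226 and 0.556 FPKM in replicates 1 to 5, a mean of 0.41 ± 0.13, or at most about 63.9 reads in a library. It lay below 1 FPKM by -0.51 (SE 0.06, limma adjusted p = 4.4e-05), and its exons overlap those of Gm49318 on the same strand. Elavl1 (HuR), the family member that most cells express, stood at 14.1 ± 2.63 FPKM. The other two neuronal Hu genes, Elavl2 and Elavl4, stood at 14.9 ± 2.27 and 6.27 ± 1.88 FPKM, both above 1 FPKM. Elavl3 was the lower gene in 5 of 5 libraries in each pair, by -3.41 ± 0.34 against Elavl1, -3.49 ± 0.20 against Elavl2 and -2.34 ± 0.47 against Elavl4 (exact p = 0.0625 and adjusted 0.0682 for each). With a pseudocount of 0.1 the difference from Elavl4 was -3.64. Elavl2 was highest in replicate 1 and lowest in replicate 3, as were the medians of both the neuron and the neural progenitor markers, whereas Elavl4 was highest in replicate 4 and lowest in replicate 5. The part of either kind of cell in these levels was not tested.

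In order of mean level the members ran Ptbp1, Ptbp2, Msi1, Msi2, Rbfox2, Nova1, Nova2, Elavl3, Rbfox3 and Srrm4. The ranges of Rbfox2 and Nova1 overlapped, with Rbfox2 higher in 4 of 5 libraries. Those of Elavl3 and Rbfox3 overlapped too, though Elavl3 was higher in 5 of 5. Rbfox3 and Srrm4 could not be ordered, Rbfox3 being higher in 2 of 5 libraries. All other neighbours in this order had ranges that did not overlap.

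Among the 6 family paralogs outside the set, 4 lay above 1 FPKM (Ptbp3, Elavl1, Elavl2 and Elavl4) and 2 below (Rbfox1 and Srrm3), with a median of 10.2 FPKM. Of 19 other tissue-regulated splicing factors 13 lay above, 4 below and 2 were called neither way, with a median of 4.96 FPKM. Qk (quaking), an RNA-binding protein of progenitors and glia, was the highest at 43.0 ± 4.12 FPKM, followed by Khdrbs1 (Sam68) at 26.2 ± 4.66, and the neuronal factor Celf3 was the lowest at 0.12 ± 0.04. Over all genes tested the median was 1.79 FPKM, with 52.3% above and 41.4% below 1 FPKM.

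**Figure D3:**
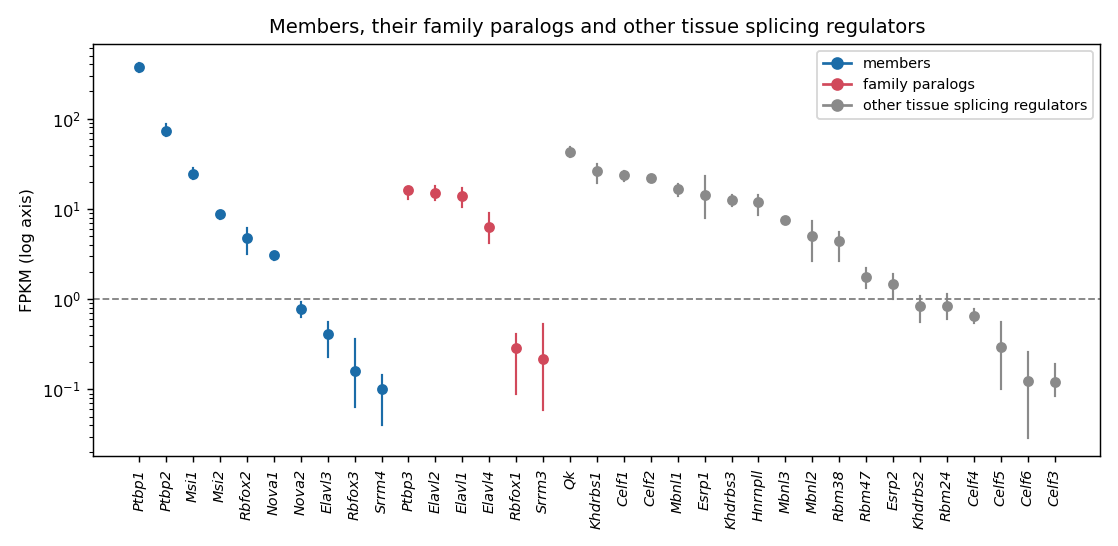
Mean FPKM on a log axis (points) with the lowest and highest library (vertical lines, n = 5) for the 10 members, 6 family paralogs and 19 other tissue-regulated splicing factors, ordered by level within each list, with a dashed line at 1 FPKM. Each list holds genes on both sides of 1 FPKM, from Ptbp1 at 373 to Srrm4 at 0.10 FPKM among the members.

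Of 12 genes listed as known RNA targets of these proteins, Ptbp2 among them, 10 lay above 1 FPKM and Src was called neither way at 0.82 ± 0.27 FPKM. The share above over all genes tested was 52.3%. Of the 12 genes, Flna (filamin A), which holds an exon that Ptbp1 represses in progenitors, had the highest level at 164 ± 29.5 FPKM. Pkm, whose alternative exons Ptbp1 helps to choose, was listed at 0 in all 5 libraries, as were Actb and Eef1a1, which almost every cell uses, so this 0 can be a failed estimate. The values are per gene and say nothing of which exons were included.

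On the log2(FPKM + 1) scale Rbfox2 moved the most of the members across libraries. The deviation from a gene's own mean on the log2(FPKM + 1) scale ranged over 0.76 for Rbfox2, from -0.44 in replicate 1 to 0.32 in replicate 3, and over 0.14 to 0.41 for the other 9. Over the same libraries the median deviation of the mesenchyme markers ran from -0.83 in replicate 1 to 0.47 in replicate 3, and that of the neural crest markers from -0.61 to 0.47 in the same replicates. For endothelial markers replicate 1 was lowest (-0.42) and replicate 4 highest (0.37). For neuron markers replicate 1 was highest (0.34) and replicate 3 lowest (-0.32), as for neural progenitor markers (0.18 and -0.22). The low members are bounded from below on this scale, since log2(FPKM + 1) cannot fall under 0. Srrm4 ranged over 0.14, while Rbfox3, also low, ranged over 0.35, as did Ptbp1.

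**Figure D4:**
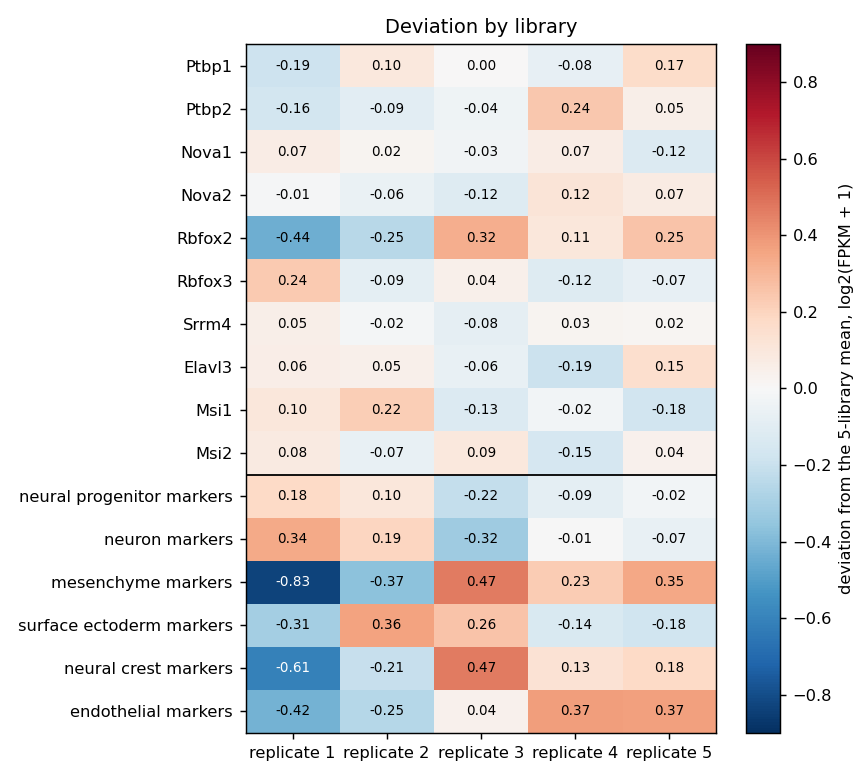
Deviation of each gene from its own 5-library mean of log2(FPKM + 1) (upper rows, 10 members) and the median deviation of 6 marker lists (lower rows, from markers averaging 1 FPKM or more), by replicate, with red above and blue below the mean. Rbfox2 is below its mean in replicates 1 and 2 and above it in the others, as are the mesenchyme and neural crest medians. The endothelial median has the same signs but lies near 0 in replicate 3 (0.04). The other members stay within -0.19 to 0.24.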

How the data were processed

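RNA of 5 NEC libraries was measured. Per the labels' protocols, full-length cDNA was made with a poly-dT primer and template switching (12 cycles), sheared and made into libraries (15 cycles), and 75-base single-end reads were taken, 35 M per sample on average. The authors deposited 1 table of FPKM, without molecular identifiers being described, so PCR copies count as reads. The tools TopHat2 2.0.11 and Cuffdiff 2.2.1 appear in the submitters' processing notes, as do cutadapt, CASAVA 1.8 and the build mm10, while annotation release and filters are not stated. Columns were matched to samples by replicate number, and coordinates come from GENCODE M21 (mm10), in which 21537 of the 21801 gene identifiers occur.

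Count tests do not suit FPKM and were left out. The 19706 genes with a value above 0 in any library entered an intercept model of log2(FPKM + 1) in limma 3.58.1 (R 4.3.3) with a variance trend, tested two-sided against 1 FPKM, with Benjamini-Hochberg adjustment over all genes. Fold differences of low genes are understated on this scale. In simulated data with 19706 genes, 92% to 100% of 50 genes set at each of 4 shifts from the level (-0.8, -0.4, 0.4 and 0.8, log2) were called and 4.1% of 2000 genes at the level. The simulated noise was normal, with an SD averaged over genes of similar level. These rates need not hold for real genes whose spread departs from that average. Pair differences, taken within each library, got an exact sign-flip permutation test, two-sided, over 32 sign patterns (scipy 1.17.1), with Benjamini-Hochberg adjustment over 12 pairs. Read totals were taken from the most frequent step of values under 0.15 FPKM in single-transcript genes over 800 bases, after taking off 200 bases, an offset chosen in earlier work on these data. Approximate reads use each gene's longest coding transcript, so they are rough.

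The members and lists were chosen with earlier results of these data known. The naming rule takes the members, both genes of each pair, and the 2 highest and the lowest gene of each other list. Not every gene it takes is named in the text. Numb, Src, Actb, Eef1a1, Kdm1a and Ctdsp2 fall outside this rule and were picked with their values known. Aif1 tied with Hbb-bt as the lowest blood marker. Alternatives were pseudocounts of 0.5 and 0.1, levels of 0.5 and 2 FPKM, rescaling to a sum of 1000000 or by median ratio, all genes kept or those averaging 0.1 FPKM or more, no variance trend, robust variance, and leaving out each library.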

Additional observations from a re-analysis of the deposited data

Results flagged for a closer look

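In 3 of the 47 genes that the naming rule takes, 1 of the 5 libraries stood apart from the rest, its gap to the nearest other being more than 0.71 of the gene's range, which chance gives in about 1 in 20 groups. None is one of the 10 splicing regulators. The rate of 1 in 20 assumes normally distributed values. It does not hold for Slc17a7 and Foxd3, each listed at 0 in all libraries but 1. Csf1r, a macrophage receptor, was at 0.2145 FPKM in replicate 1, Slc17a7, a glutamate transporter of neurons, at 0.0639 FPKM in replicate 1 with the other libraries listed at 0, and Foxd3, a neural crest factor, at 0.0199 FPKM in replicate 5 with the others listed at 0.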

How the results depend on the processing

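The count of members above the level was 6 or 7 under every alternative run. Against a level of 0.5 FPKM 2 members and not 4 lay below: Nova2 then lay above (log2 difference 0.25), and Elavl3 was called neither way (-0.10, limma adjusted p = 0.13). Nova2 was also called neither way with a pseudocount of 0.1 (-0.33, limma adjusted p = 0.073) and after rescaling to a sum of 1000000 FPKM (-0.02, limma adjusted p = 0.82), which shifted the median over genes averaging 1 FPKM or more by 0.30 on the log2 scale, and without replicate 2 or 3 (-0.15 and -0.14). Of the 150 tests of single members under alternatives, 144 kept direction and call, and the 108 pair differences kept their direction. Keeping genes that averaged 0.1 FPKM or more, 3495 lay below 1 FPKM, against 8167, because fewer low genes were tested. No paired analysis was possible because the series has 1 group, so replicate numbers pair no samples across groups; the gene pairs are compared within a library. With 5.7 to 25.8 reads behind Rbfox3 and 6.1 to 25.5 behind Srrm4, differences between libraries in these genes rest on few reads. Of 330 counts for the other lists under alternatives, 312 stayed within 1.5 times and 18 did not. The cause of the other changes was not tested.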

Other observations

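The values were known when the genes named here were picked. Of the CELF family, Celf1 (23.8 ± 2.56 FPKM) and Celf2 (21.9 ± 1.86), which many tissues express, lay above 1 FPKM, and Celf3 (0.12 ± 0.04), Celf4 (0.64 ± 0.11), Celf5 (0.29 ± 0.23) and Celf6 (0.12 ± 0.08), known mainly from neurons, lay below it. These 4 were the only ones of the 19 other tissue-regulated splicing factors called below. Among all genes tested 41.4% were called below and 52.3% above. The Muscleblind genes, whose proteins drive postnatal splicing patterns, were all above 1 FPKM, with Mbnl1 at 16.5 ± 1.94, Mbnl3 at 7.45 ± 0.15 and Mbnl2 at 4.96 ± 1.70 FPKM.

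Esrp1, a splicing factor of epithelial cells, had 7.85, 22.9, 15.9, 12.5 and 11.9 FPKM in replicates 1 to 5, a mean of 14.2 ± 5.64. It was lowest in replicate 1 and highest in replicate 2, as was the summed level of the surface ectoderm markers, at 119, 183, 169, 125 and 125 FPKM. The part of ectoderm cells in the level of Esrp1 was not tested. Its paralog Esrp2 stood at 1.47 ± 0.36 FPKM.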
